A study of Mus musculus with 4 samples.

Results

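The 9 genes described here make up the imprinted gene cluster on distal mouse chromosome 7. They were chosen by name: H19, Igf2, Ins2, Ascl2, Kcnq1, Kcnq1ot1, Cdkn1c, Slc22a18 and Phlda2, 9 of the 55450 genes in the annotation. All 9 were found in it. The measurements are PRO-seq libraries from 2 tissues of the mouse embryo at embryonic day E14.5, liver and yolk sac, with 2 libraries for each. PRO-seq (precision nuclear run-on sequencing) labels RNA that polymerases are making in isolated chromatin. The deposited lists hold dREG peaks, which are stretches of the genome classed from such reads as places where transcription starts, at promoters and at enhancers. Each library came from tissue of 6 pooled embryos. Mothers of both groups were C57BL/6J. Fathers had a mixed background of C57BL/6J and CAST/EiJ, and were picked so that their Dlk1/Gtl2 locus on chromosome 12 held CAST/EiJ polymorphisms. The sample labels write the first strain as C57BL/6h. No genotype or treatment separated the groups, so tissue is the comparison. No label says that a liver library and a yolk sac library with the same number came from the same embryos.

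Imprinted genes are expressed mainly from the copy inherited from 1 parent. In the H19 and Igf2 domain, the factor CTCF binds a control region upstream of H19 on the maternal copy and keeps enhancers that lie beyond H19 away from Igf2. On the paternal copy that region is methylated, H19 is silent and Igf2, a fetal growth factor, is transcribed. In the neighbouring Kcnq1 domain, the control region is the promoter of the long noncoding RNA Kcnq1ot1, which is made from the paternal copy and silences nearby genes there, among them Cdkn1c and Phlda2. Some of these genes, Ascl2 among them, are known to be imprinted mainly in the placenta. The peak lists carry neither allele nor strand, so nothing here says which parental copy was transcribed. Where genes on opposite strands overlap, as Igf2 with Igf2os and Kcnq1 with Kcnq1ot1, a peak cannot be given to either.

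The sequences the peaks fell on can be read at several of these promoters. RefSeq windows from 250 bases before to 50 after a start (assembly GRCm38.p6) matched 5 of the 9 genes, with 8 windows in all. Printed below is a selection made by coverage: a start covered in every library and starts that were covered further, or only, in yolk sac. The sequences run 5′ to 3′ on the gene's strand, and capitals mark matches, on either strand, to any of 6 motifs searched by their letters: the TATA box TATAAA, the box CCAAT that the factor NF-Y binds, the GC box GGGCGG, the GATA factor motif GATAAG, the E-box CACGTG, and GGNGGCAG, the core of the CTCF site. No 2 matches overlapped.
Kcnq1ot1, chr7:143296498-143296797, minus strand: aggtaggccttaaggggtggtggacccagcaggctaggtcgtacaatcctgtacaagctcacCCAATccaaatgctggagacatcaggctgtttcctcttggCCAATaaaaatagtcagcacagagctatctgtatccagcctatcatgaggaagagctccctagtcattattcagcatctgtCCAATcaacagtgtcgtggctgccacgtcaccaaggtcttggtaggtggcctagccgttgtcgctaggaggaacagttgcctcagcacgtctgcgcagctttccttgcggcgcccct
Igf2, inner start, chr7:142657447-142657746, minus strand: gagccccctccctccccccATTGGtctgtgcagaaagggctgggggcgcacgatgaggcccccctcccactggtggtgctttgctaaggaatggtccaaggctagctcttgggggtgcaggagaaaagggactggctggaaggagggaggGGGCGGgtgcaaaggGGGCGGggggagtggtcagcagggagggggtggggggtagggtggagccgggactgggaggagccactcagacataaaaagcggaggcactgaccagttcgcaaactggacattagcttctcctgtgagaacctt
Ascl2, chr7:142969215-142969514, minus strand: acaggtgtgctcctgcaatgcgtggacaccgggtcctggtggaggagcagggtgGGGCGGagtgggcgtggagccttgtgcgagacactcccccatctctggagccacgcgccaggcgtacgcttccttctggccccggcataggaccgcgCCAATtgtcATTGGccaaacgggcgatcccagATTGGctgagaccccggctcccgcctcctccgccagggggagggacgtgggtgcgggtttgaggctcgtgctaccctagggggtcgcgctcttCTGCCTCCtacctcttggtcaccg
Slc22a18, chr7:143473539-143473838, plus strand: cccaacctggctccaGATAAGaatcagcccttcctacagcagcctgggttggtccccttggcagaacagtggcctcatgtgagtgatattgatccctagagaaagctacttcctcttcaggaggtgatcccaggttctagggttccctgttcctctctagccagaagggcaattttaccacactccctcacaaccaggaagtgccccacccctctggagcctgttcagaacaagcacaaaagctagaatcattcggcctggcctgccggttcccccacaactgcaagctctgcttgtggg

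Peaks covered the whole Kcnq1ot1 window, 300 bases, in each of the 4 libraries. That window held 3 CCAAT matches and 9 CG dinucleotides. The inner Igf2 window was covered by 0 bases in both liver libraries and by all 300 in both yolk sac libraries, and held 2 GGGCGG matches and 1 CCAAT match. The Igf2 windows not printed were less evenly split. That from 142661222 was covered by 121 and 0 bases in liver and 0 and 300 in yolk sac. That from 142658755 had 54 and 300 in liver, and that from 142666767 had 216 and 0, with 300 in both yolk sac libraries at each. Of the Ascl2 window, 0 bases were covered in liver and 88 in each yolk sac library, and it held 3 CCAAT matches and 23 CG dinucleotides. The Slc22a18 window was covered over 38 bases in liver replicate 1, 238 in liver replicate 2 and 300 in both yolk sac libraries, and held 1 GATAAG match. Matches of this kind are common: of all 32851 windows in the table, 37.4% held CCAAT, 35.7% GGGCGG, 13.6% TATAAA, 12.6% GGNGGCAG, 7.44% GATAAG and 7.15% CACGTG, and the median number of CG dinucleotides was 7. Such a match describes letters and is not a bound site. The cluster also encodes microRNAs, short RNAs that pair with messenger RNAs through a seed. Mir675 lies inside H19 and Mir483 inside Igf2. Their mature forms, all on the minus strand of GRCm38.p6, are given below 5′ to 3′ with the seed (bases 2 to 8) in capitals, because their genomic positions were covered fully by yolk sac peaks and by 0 bases of liver peaks in every library.
miR-675-5p, chr7:142577112-142577133: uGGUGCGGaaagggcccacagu
miR-675-3p, chr7:142577078-142577099: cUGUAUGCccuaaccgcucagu
miR-483-5p, chr7:142654968-142654989: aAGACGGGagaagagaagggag
miR-483-3p, chr7:142654932-142654952: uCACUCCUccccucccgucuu

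No 2 of these seeds were the same. The peaks that cover them are the wide H19 and Igf2 peaks described below, so they are no measure of the mature microRNAs.

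The tissues were checked against marker genes by whether a peak lay within 500 bp of an annotated start, called a promoter peak here. Of 6 erythroid markers, 6 had a promoter peak in each liver library and 1 in each yolk sac library, and Hbb-bt, Klf1, Slc4a1, Gata1 and Alas2 had it in both liver libraries only. The 6 yolk sac endoderm markers had 4 and 3 calls in the liver libraries and 6 in each yolk sac library, with Cubn and Amn called in yolk sac only. Hepatocyte markers were called in both tissues, 5 and 4 of 6 in liver and 5 of 6 in each yolk sac library. Mesenchyme markers had 3 and 4 calls of 5 in liver and 5 in each yolk sac library, endothelial markers 3 of 3 in every library, and macrophage markers 1 and 1 of 3 in liver against 3 and 2 in yolk sac. The part that these mixed cell types have in the results below was not tested. In such bulk tissue, fewer cells of a type and less RNA per cell cannot be told apart. The lists held 24863 and 24333 peaks in liver against 50525 and 43055 in yolk sac. Read numbers behind the lists are unknown, so depth and breadth of transcription cannot be told apart as sources of a longer list.

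Promoter peaks were found at most of the 9 genes in both tissues. H19, Igf2, Ascl2, Kcnq1ot1, Cdkn1c, Slc22a18 and Phlda2 had one in every library, 7 of the 9 genes. Kcnq1 had one in liver replicate 2 and in both yolk sac libraries, and Ins2, an insulin gene, in none. The number of called genes was 7 and 8 in liver and 8 and 8 in yolk sac, groups that overlap. Among all 32106 protein-coding and long noncoding genes, 42.1% had one in every library and 45.6% in no library. None of the 9 genes was called in both libraries of only 1 tissue, a pattern seen in 1.02% of all genes for liver and 5.59% for yolk sac. What separated the tissues at these genes was the extent of the peaks. At each of the 7 genes called everywhere, the widest promoter peak was wider in each yolk sac library than in each liver library. The same held for 36.4% of the 13516 genes called everywhere, and the reverse for 20.5%. The median fold in mean width, yolk sac over liver, was 2.93 for the 7 genes and 1.04 for the 13516. For single values, an exact two-sided permutation test of 2 libraries against 2 cannot give less than 0.333.

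**Figure D1:**
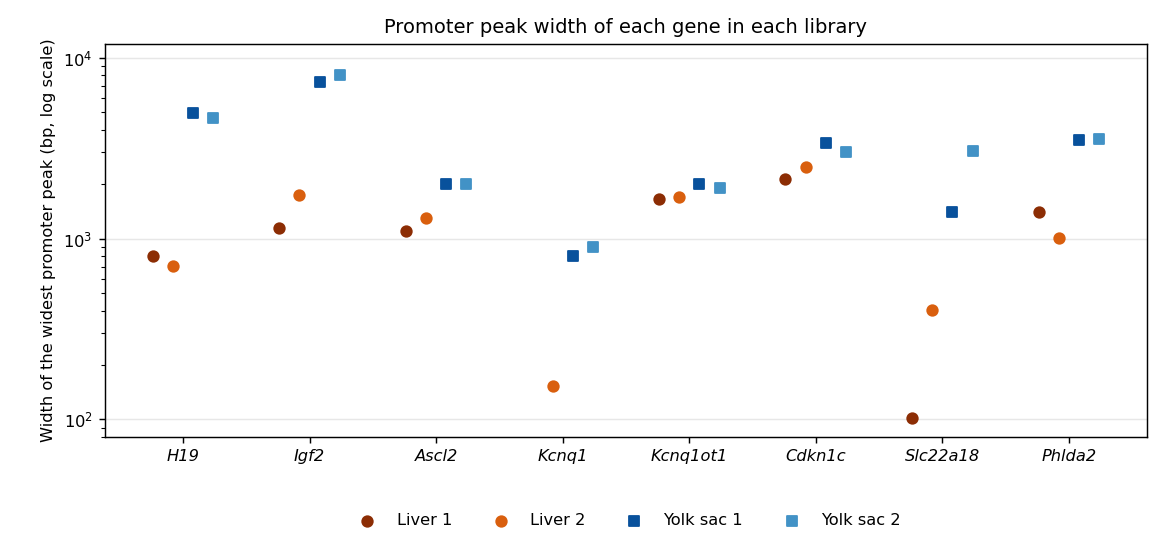
Width in base pairs (log axis) of the widest promoter peak of each gene, with circles for the liver libraries and squares for the yolk sac libraries. Both squares lie above both circles at H19, Igf2, Ascl2, Kcnq1ot1, Cdkn1c, Slc22a18 and Phlda2; Kcnq1 has no point for liver replicate 1, and Ins2, with no promoter peak, is not drawn.

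H19 is a noncoding RNA gene, ENSMUSG00000000031.16, on the minus strand of chromosome 7 from 142575529 to 142578143 (GRCm38, the build called mm10, as for all positions here). Its promoter peak was 802 bp wide in liver replicate 1 and 702 bp in liver replicate 2. In yolk sac it was 4952 bp in replicate 1 and 4652 bp in replicate 2. The liver peaks lay at the upstream end of the gene, from 142577951 to 142578752 and from 142578001 to 142578702. A second liver peak of 1202 bp, from 142574601 to 142575802 in both libraries, lay over the far end of the gene. In yolk sac a single peak, from 142574101 or 142574401 to 142579052, ran over the whole of it. Mean width was 752 ± 70.7 bp in liver and 4802 ± 212 bp in yolk sac (SD, n = 2), 6.39 times as wide (exact two-sided permutation p = 0.333, the smallest possible). The gap between the tissues was larger than the spread between replicates. Of the 13516 genes called everywhere, 62 had a larger fold in width.

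The peaks left most of the H19 body bare in liver. They covered 17.9% and 15.95% of it in the liver libraries and 100% in both yolk sac libraries. Of the 7 annotated starts, 3 had a peak in every library and the other 4, all inside the gene, only in yolk sac. A wide peak can hold several calls joined together: neighbouring peaks were at least 548 bp apart in each list, and whether nearby calls had been joined cannot be told from the lists. The width is therefore a width of signal classed as initiation, not a number of starts.

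Igf2 (ENSMUSG00000048583.16, minus strand, 142650766 to 142666816), which encodes insulin-like growth factor 2, showed the same kind of difference. Its widest promoter peak was 1152 bp in liver replicate 1 and 1752 bp in liver replicate 2. It was 7352 bp in yolk sac replicate 1 and 8052 bp in yolk sac replicate 2. The groups did not overlap, and the means were 1452 ± 424 bp and 7702 ± 495 bp (SD, n = 2), 5.30-fold apart (exact permutation p = 0.333). In yolk sac replicate 1, 14 of the 13516 genes had a promoter peak at least as wide, and in replicate 2, 6 did, counts that include Igf2 itself and Igf2os, which shares the peak. By fold in width, 109 genes were ahead of it. Each liver library had 4 separate promoter peaks at Igf2 where each yolk sac library had 2. Peaks covered 12.5% and 21.2% of the gene in liver and 51.8% and 62.7% in yolk sac.

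Peaks were spread unevenly over the annotated Igf2 starts. Of 9 starts, 6 and 5 had a peak in liver against 7 and 8 in yolk sac. The start at 142659489 was the only one with a peak in all 4 libraries. That at 142653030, near the 3′ end, had a peak in each liver library and in no yolk sac library, where the wide peak began at 142653651 and 142653751, over 500 bp away. The upstream start at 142666816 had a peak in liver replicate 1 and both yolk sac libraries. The inner starts at 142657466 and 142657496 both lie inside the inner window printed above. They had a peak within 500 bp in liver replicate 2 and both yolk sac libraries. In liver replicate 2 that peak, from 142657801 to 142657902, was 102 bp wide and lay outside the printed window. Its score percentile, the share of peaks in the same list that score no higher, was 0.325.

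Scores did not set these peaks among the strongest of their lists. The H19 promoter peak was at score percentile 36.6 and 27.6 in liver, and at 62.9 and 45.6 in yolk sac. The widest Igf2 peak was at 29.1 and 35.9 in liver and 47.6 and 55.9 in yolk sac. Percentiles from lists of unequal length are not compared between tissues. With the higher-scoring 50% of each list, the H19 promoter kept a peak in yolk sac replicate 1 only and Igf2 in yolk sac replicate 2 only. With lists cut to equal length, the 24333 best-scoring peaks of each, H19 kept its peak in all 4 libraries at the same widths, while Igf2 lost its peak in yolk sac replicate 1.

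Ins2 (minus strand, 142678656 to 142743381) lies next to Igf2 and had no peak at any of its 9 annotated starts. From its end to Ascl2, a stretch of 223 kb that holds the tyrosine hydroxylase gene Th, each list had 0 peaks. The files list only called peaks, so this says that none was called.

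From H19 to the end of Ins2 there were 8 and 7 peaks in liver against 8 and 5 in yolk sac. The means were 7.5 ± 0.707 and 6.5 ± 2.12 (SD, n = 2), and the groups overlapped (exact permutation p = 1). Those peaks covered 5.29 and 5.59 kb in liver and 13.7 and 14.4 kb in yolk sac. Both counts and extent depended on list length. With lists of equal length, liver kept 8 and 7 peaks and yolk sac 1 and 4, and the covered length in yolk sac replicate 1 was 3.52 kb, below both liver values, while replicate 2 kept 14.1 kb. Merging peaks that overlap by at least 1 bp gave 10 regions. The regions called in all 4 libraries, 4 in number, included the H19 region and the main Igf2 region (142653401 to 142661952). The others were one near an inner Igf2os start (142664051 to 142665702) and one at 142610451 to 142611752. The last lies 33.0 kb upstream of H19, inside the noncoding gene Gm33148, and was 1202 bp wide in both liver libraries and 702 and 252 bp in yolk sac. At 142666451 to 142667352, over the upstream Igf2 start, 3 libraries had a peak. The other 5 regions were called in 1 library each: 142649901 to 142650602 and 142653001 to 142653102 in liver replicate 1, and 142580451 to 142580652, 142669551 to 142670002 and 142675451 to 142675552 in yolk sac replicate 1.

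**Figure D2:**
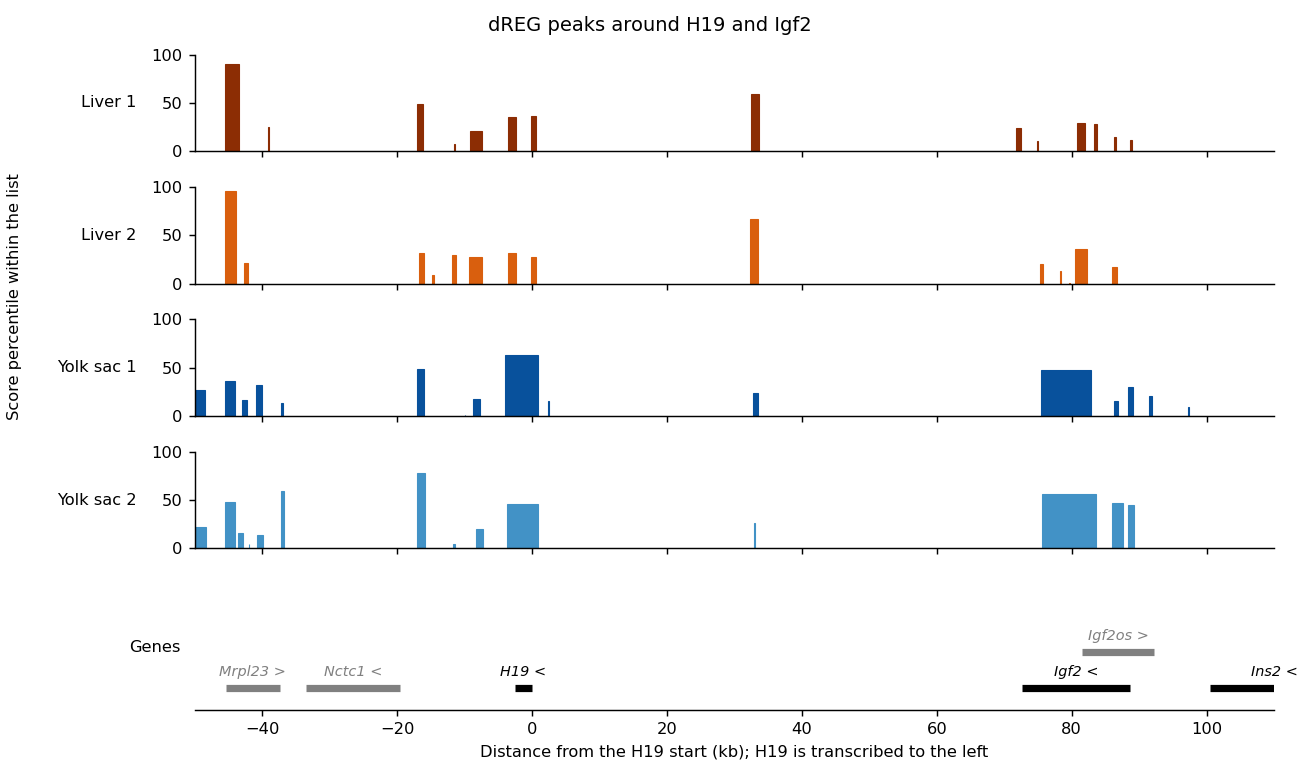
Peaks of each library drawn by distance from the H19 start in kb, with the height giving the score percentile within the list and gene bodies below (arrowheads show strand). The yolk sac tracks show 1 wide block over H19 and 1 over Igf2, 4952 and 7352 bp in replicate 1, where the liver tracks show separate narrower peaks; a peak 33.0 kb upstream of H19 is present in all 4 libraries.

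The known control elements were looked at by distance from the H19 start. The imprinting control region, taken as 2 to 4 kb upstream, had a peak in 1 library only, 202 bp wide in yolk sac replicate 1. The stretch 5 to 12 kb downstream, where enhancers used in endoderm lie, had 2 peaks in every library, and with lists of equal length 2 in each liver library and 0 in each yolk sac library. Its region at 142568801 to 142570902, 8.29 kb downstream, was called in all 4, with widths of 1752 and 1952 bp in liver and 1152 bp in both yolk sac libraries. A region at 142561001 to 142562252, 16.5 kb downstream, was also called in all 4. The longer stretch from 12 to 100 kb downstream, where enhancers used in mesoderm have been placed, had 4 and 5 peaks in liver against 11 and 14 in yolk sac. There the groups did not overlap, with means of 4.5 ± 0.707 and 12.5 ± 2.12 (SD, n = 2, exact permutation p = 0.333), and 8 of its 15 regions (53.3%) were called in both yolk sac libraries only, against 33% of all merged regions of the genome. With lists of equal length the counts overlapped, 4 and 5 peaks in liver against 1 and 6 in yolk sac. These elements were placed by distance alone, and the stretch also holds Mrpl23, Nctc1, Tnnt3 and Prr33.

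Inside the gene Kcnq1, peaks were many times more numerous in yolk sac. Kcnq1 (ENSMUSG00000009545.14, plus strand, 143106362 to 143427042) encodes a voltage-gated potassium channel and contains the antisense gene Kcnq1ot1. Inside it lay 4 peaks in each liver library, 33 in yolk sac replicate 1 and 28 in yolk sac replicate 2. The means were 4 ± 0 and 30.5 ± 3.54 (SD, n = 2), 7.63-fold apart, with no overlap (exact permutation p = 0.333). Covered length was 3.91 and 3.46 kb in liver and 31.1 and 25.7 kb in yolk sac. A non-overlapping excess of body peaks in yolk sac was found at 59.7% of the 2130 protein-coding genes of at least 100 kb that had a peak, with a median difference of 1.5 peaks. The difference at Kcnq1 was 26.5 peaks, and 5 of those genes, Gm20388, Fgfr2, Rad51b, Bcar3 and Arhgap26, had a larger one. On the log2 scale with a pseudocount of 0.5, the value was 2.78 at Kcnq1 and 1 at the median of the long genes, and 172 genes were ahead of Kcnq1. When each list was cut to its 24333 highest-scoring peaks, Kcnq1 held 4 and 4 peaks in liver against 16 and 14 in yolk sac. Such an excess was then found at 28.3% of 2002 long genes, the median difference was 0, and 0 genes had a larger difference than the 11 peaks of Kcnq1.

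**Figure D3:**
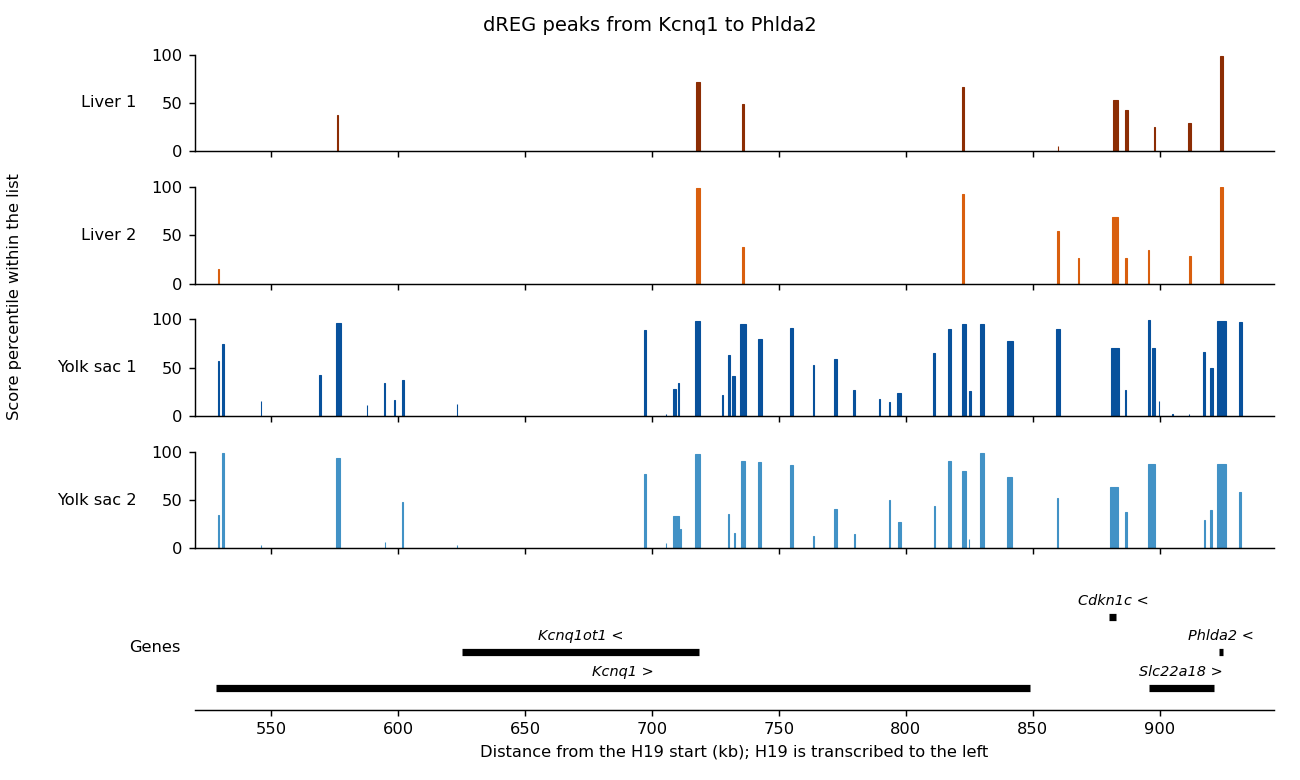
Peaks of each library from Kcnq1 to Phlda2, by distance from the H19 start in kb, with the score percentile as height and gene bodies below. Liver has 4 peaks inside Kcnq1 in each library, and yolk sac has 33 and 28, the highest of them above score percentile 97 in each list.

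Merged over the libraries, these peaks formed 34 regions inside Kcnq1. Calls in every library numbered 3, calls in the 2 yolk sac libraries without a liver call 21, calls in the 2 liver libraries without a yolk sac call 0, and the other 10 regions were mixed. Among all 61095 merged regions of the genome, 25.7% were called in all 4 libraries, 33% in both yolk sac libraries only and 6.62% in both liver libraries only. Of the 21 yolk-sac-only regions, 20 lay fully in introns of Kcnq1 and 1, at 143108851 to 143109752, overlapped an exon. Their widths ran from 102 to 2502 bp. Scores varied widely: in 7 of the 21, both yolk sac percentiles were at least 50, and the median of the lower percentile was 35.4.

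The leading yolk-sac-only regions of the whole cluster, ranked by the lower of their 2 percentiles, were all in introns of Kcnq1. That at 143407251 to 143408752 stood at percentile 95.5 and 98.5. That at 143394701 to 143396002 stood at 90.1 and 90.3, and that at 143332651 to 143333752 at 91.4 and 85.9. The 3 regions shared by all libraries were the Kcnq1ot1 promoter, 143312901 to 143315002 and 143400201 to 143401752. At 143312901 the peak was 952 and 852 bp wide in liver and 2102 and 1852 bp in yolk sac. At 143400201 it was 802 and 752 bp in liver and 1552 and 1402 bp in yolk sac. Both shared intronic peaks were thus wider in yolk sac in each library.

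Kcnq1 itself had few peaks at its starts in liver. Of 7 annotated starts, 0 and 2 had a peak in liver and 5 in each yolk sac library. The start at 143107254 had no peak in liver replicate 1 and a peak of 152 bp, at percentile 15.2, in liver replicate 2. Over the same place the yolk sac peaks were 452 and 402 bp, at percentiles 57.2 and 34.5. The widest Kcnq1 promoter peak of yolk sac was another, 802 and 902 bp wide at percentiles 74.9 and 98.6, about 2.05 kb further into the gene. It lay over another annotated start, at 143109194. Which start is the main one was not determined. No mean is given for liver, since 1 of its libraries had no promoter peak.

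Kcnq1ot1 (ENSMUSG00000101609.2, minus strand, 143203458 to 143296549), the noncoding RNA whose promoter is the control region of the domain, differed least in width among the 7 genes called everywhere. Its promoter peak was 1652 and 1702 bp wide in liver and 2002 and 1902 bp in yolk sac, running from about 143295101 to 143297102, the stretch that holds the window printed above. The groups did not overlap, but the means, 1677 ± 35.4 and 1952 ± 70.7 bp (SD, n = 2), were only 1.16-fold apart. The score was high in each list, at percentile 71.8 and 99.1 in liver and 97.9 in both yolk sac libraries. Within 1 kb of its start there was 1 peak in every library. Over the rest of its body the tissues parted. The whole Kcnq1ot1 gene held 1 peak in each liver library, that of the promoter, and 5 in each yolk sac library, 3 of whose 5 regions were yolk-sac-only. The one with the highest scores among those 3, at 143274801 to 143275902, lay 21.2 kb downstream of the Kcnq1ot1 start at percentile 88.7 and 77.6. Kcnq1 before Kcnq1ot1 held 1 and 1 peaks in liver against 10 and 7 in yolk sac, and Kcnq1 beyond it 2 and 2 against 18 and 16. With lists of equal length, Kcnq1ot1 held 1 peak in each liver library and 2 in each yolk sac library, a difference of 1 peak. The stretch before it then held 1 and 1 against 3 and 3, and the stretch beyond it 2 and 2 against 11 and 9.

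Cdkn1c (ENSMUSG00000037664.13, minus strand, 143458339 to 143461050) encodes p57, an inhibitor of cyclin-dependent kinases that restrains cell division. Its promoter peak was 2152 and 2502 bp wide in liver and 3402 and 3002 bp in yolk sac. Means were 2327 ± 247 and 3202 ± 283 bp (SD, n = 2), 1.38-fold apart without overlap, and 2876 genes had a larger fold. All 5 annotated starts had a peak in every library. Score percentiles were 52.9 and 69.2 in liver against 70.2 and 63.2 in yolk sac. The other members of its inhibitor family, Cdkn1a and Cdkn1b, also had a promoter peak in all 4 libraries.

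Phlda2 (ENSMUSG00000010760.5, minus strand, 143501545 to 143503150), a gene known for limiting growth of the placenta, had high-scoring peaks throughout. Its promoter peak stood at percentile 98.6 and 99.5 in liver and 98.5 and 87.4 in yolk sac. It was 1402 and 1002 bp wide in liver and 3502 and 3552 bp in yolk sac, a 2.93-fold difference in means (1202 ± 283 against 3527 ± 35.4 bp, SD, n = 2, exact permutation p = 0.333). Peaks covered 87.2% and 62.4% of the short gene in liver and 100% in yolk sac. A region 143509401 to 143510352, upstream of Phlda2, was yolk-sac-only, at percentile 97.7 and 58.4.

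Slc22a18 (plus strand, 143473736 to 143499334) encodes a membrane protein of the organic cation transporter family. Its promoter peak was 102 bp wide in liver replicate 1, where it scored near the bottom of the list at percentile 0.491, and 402 bp in liver replicate 2, at percentile 35.1. In yolk sac replicate 1 the widest was 1402 bp and a second promoter peak stood at percentile 98.9. In yolk sac replicate 2 a single peak of 3052 bp stood at percentile 87.3. Liver replicate 1 had another peak, 752 bp wide from 143475701 to 143476452, that lay over 500 bp from any annotated start and was not counted. The fold in mean width was 8.84, with 252 ± 212 bp against 2227 ± 1167 bp (SD, n = 2). That fold rests on very narrow liver peaks that are of unequal width, and the spread within each tissue is large. With lists of equal length the peak of liver replicate 1 was gone, and with the higher-scoring 50% both liver peaks were. The start at 143475101 had a peak within 500 bp in yolk sac only, although its merged region, 143473351 to 143476452, was called in all 4 libraries. The gene held 2 yolk-sac-only regions, at 143495251 to 143496102 and 143497751 to 143498952.

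Ascl2 (ENSMUSG00000009248.6, minus strand, 142966829 to 142969264) encodes a basic helix-loop-helix transcription factor needed in the placenta. Its promoter peak was 1102 and 1302 bp wide in liver and exactly 2002 bp in both yolk sac libraries. Means were 1202 ± 141 and 2002 ± 0 bp (SD, n = 2), 1.67-fold apart. Of its 2 annotated starts, the inner start at 142968717 had a peak in every library. The outer start at 142969264, whose window is printed above, had one in yolk sac only, where the peak ended at 142969302. The liver peaks ended at 142968552 and 142968752, that of replicate 2 only just outside the 500 bp limit. Percentiles were 53.9 and 79.6 in liver and 89.5 and 97.1 in yolk sac.

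Seen as a whole, the cluster followed its lists. From 100 kb before H19 to 100 kb after Phlda2, 1.13 Mb in length, there were 39 and 34 peaks in liver against 78 and 67 in yolk sac. The means were 36.5 ± 3.54 and 72.5 ± 7.78 (SD, n = 2), 1.99-fold apart (log2 0.99, exact permutation p = 0.333). Relative to the length of each list this was 1.57 and 1.40 peaks per 1000 in liver and 1.54 and 1.56 in yolk sac, values that overlap. Of 2002 genome tiles of this length that held any peak, 79.7% favoured yolk sac in this way, with counts that did not overlap. In tiles with at least 20 peaks, the median log2 ratio was 0.95, and 720 of 1482 tiles had a larger ratio than the cluster. With lists of equal length the log2 ratio of the cluster was -0.02. A tissue difference in its total peak number was therefore not seen beyond the difference in list length. Among the consecutive stretches of the cluster, Kcnq1 was the one where the counts parted most, followed by the flank before H19 with 7 and 8 peaks in liver against 14 and 16 in yolk sac. In that flank the order turned with lists of equal length, to 7 and 8 against 2 and 6. Ascl2 to Kcnq1 held 8 and 6 against 8 and 8, the end of Kcnq1 to Phlda2 7 and 7 against 12 and 7, and the flank after Phlda2 5 and 2 against 3 and 3.

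**Figure D4:**
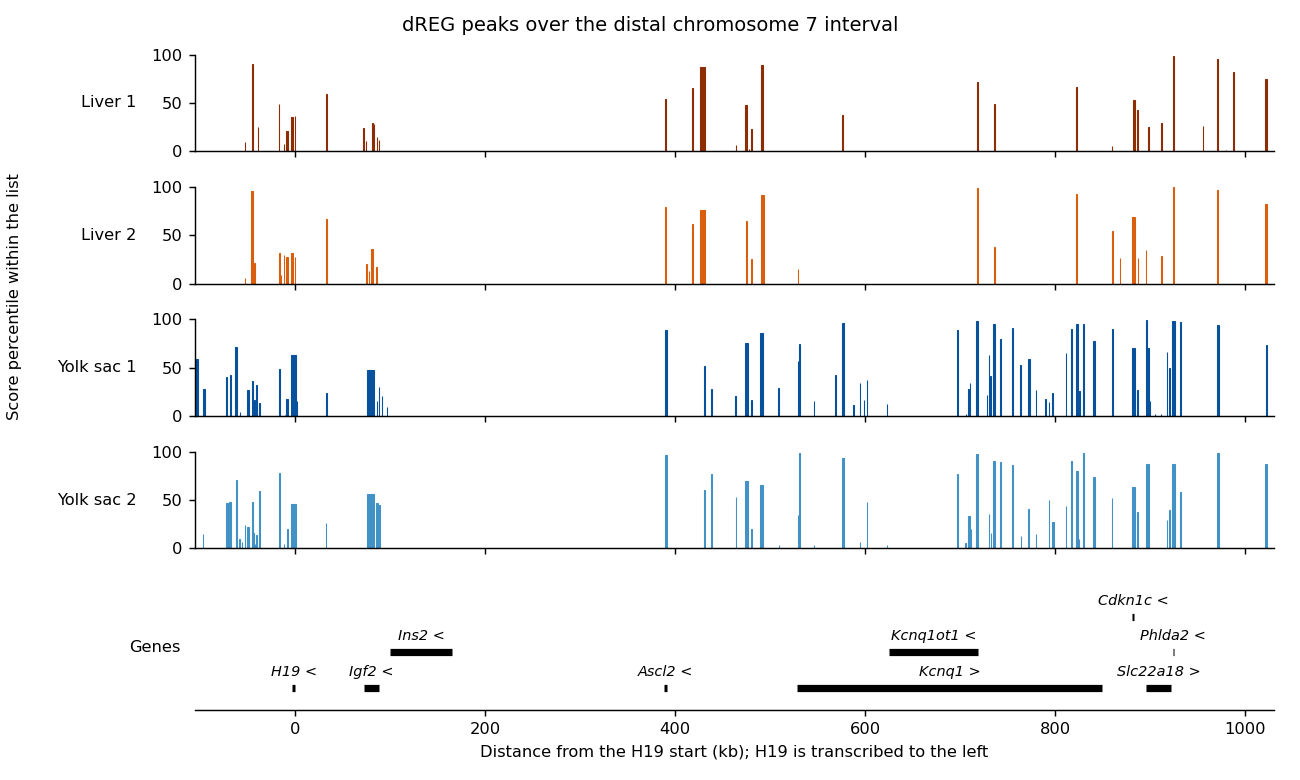
All peaks from 100 kb before H19 to 100 kb after Phlda2, by distance from the H19 start in kb, 1 track per library, with the score percentile as height and the 9 genes below. Peaks lie in the flank before H19, around H19 and Igf2, and again from Ascl2 to the flank after Phlda2, with 0 peaks in every library between Ins2 and Ascl2.

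**Figure D5:**
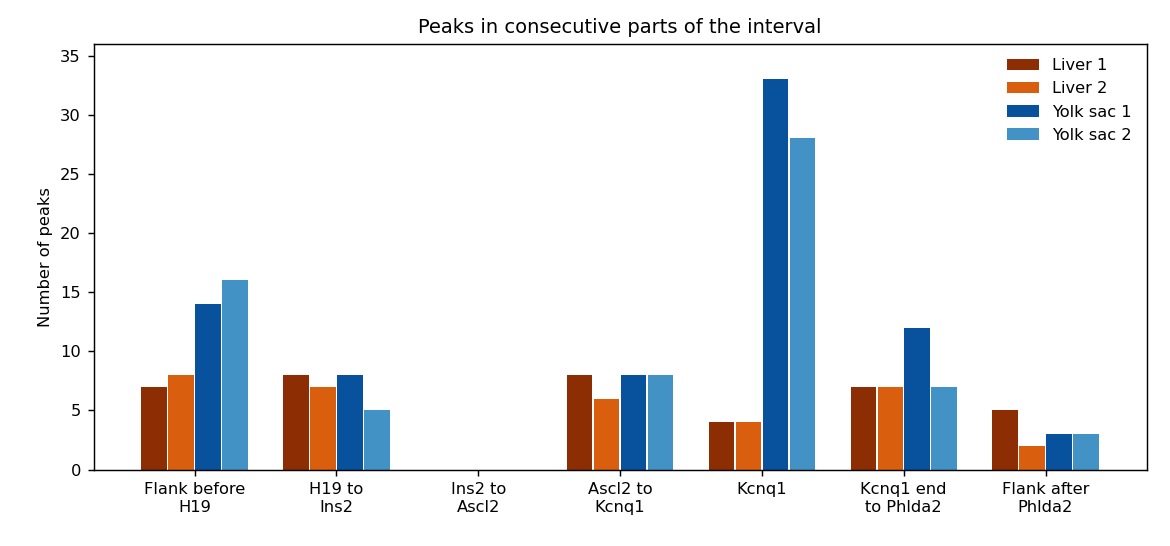
Number of peaks in consecutive stretches of the cluster, 1 bar per library. The bars for Kcnq1 stand at 4 and 4 in liver and 33 and 28 in yolk sac; those from H19 to Ins2 stand at 8 and 7 against 8 and 5.

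Of the 91 merged regions of the cluster, 22 were called in all 4 libraries, 35 in both yolk sac libraries only and 1 in both liver libraries only. These are 24.2%, 38.5% and 1.1%, beside 25.7%, 33% and 6.62% of all merged regions of the genome. With lists of equal length, 10 regions were yolk-sac-only and 8 liver-only. The single liver-only region, at 142995701 to 142997502 in the noncoding gene Tspan32os, was 1802 and 1152 bp wide at percentile 65.9 and 61.4. It lies in the stretch between Ascl2 and Kcnq1, upstream of Tspan32. At the Tspan32 start a peak of 4652 bp was called in both liver libraries, while the widest peak at Tspan32os was 1402 and 1502 bp in yolk sac.

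The other genes of the interval were counted for comparison. Of 26, 10 were called in every library, among them Cd81, Tssc4, Nap1l4, Mrpl23 and Igf2os, and 9 in no library, among them Th, Tnnt3 and Nctc1. Among all coding and long noncoding genes, 42.1% were called in every library and 45.6% in none. The 26 include the microRNA genes Mir675, Mir483 and Mir7064, a type those shares leave out. Only Tspan32, a tetraspanin of blood cells, was called in both liver libraries alone. Prr33, Mir675, Mir483 and Trpm5 were called in both yolk sac libraries alone, and the 2 microRNA genes among them lie under the wide H19 and Igf2 peaks. The remaining 2, Lsp1 and Gm49394, were mixed. Beyond Phlda2 and outside the interval, Osbpl5 was called in all 4 libraries, Tnfrsf22 in all but liver replicate 1, and Tnfrsf23 in yolk sac replicate 2 only.

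Lists of related genes were counted next. Of 18 genes of the insulin-like growth factor pathway, 12 and 15 had a promoter peak in liver and 15 and 15 in yolk sac. In all 4 libraries 12 had it, beside 42.1% of all coding and long noncoding genes. That share mixes the 2 gene types, and none was computed for coding genes alone, so it is not a matched background. Those 12 include the receptors Igf1r, Insr and Igf2r, the adaptors Irs1 and Irs2, and the binding protein genes Igfbp1, Igfbp3 and Igfbp4. Igf1, the related growth factor, and the binding protein genes Igfbp2 and Igfbp5 had none in liver replicate 1 and a peak in the other 3 libraries. At Igf1 the peak was 702 bp wide in liver replicate 2 and 2452 and 2502 bp in yolk sac. At Igfbp3 it was 1002 and 802 bp in liver and 3452 and 3252 bp in yolk sac, while at Igf1r it was 3452 and 2852 bp against 4452 and 3952 bp. Irs2, Grb10, Igf2bp1 and Igf2bp2 were not wider in each yolk sac library than in each liver library. Widths were 3702 and 3202 bp against 3302 and 3102 bp at Irs2, and 4502 and 3402 bp against 3252 bp in both at Grb10. They were 3252 and 3602 bp against 3252 and 2702 bp at Igf2bp1, and 1502 and 1752 bp against 1952 and 1752 bp at Igf2bp2. The rest of the 12 were wider, as were 36.4% of the 13516 genes called everywhere. Pappa, Pappa2 and Igfbp6 had no promoter peak in any library. Of 7 genes for factors that maintain or read imprints, 6 were called in all 4 libraries, beside the same 42.1% (Ctcf, Zfp57, Trim28, Dnmt1, Plagl1 and Zfp445), and Dppa3 in yolk sac replicate 1 only.

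The genes elsewhere in the genome whose promoter peaks were most like these were found over the 4 libraries, among 11511 of the 13516 genes called in each, leaving out the interval itself and predicted genes and clones. Likeness was the distance in log2 width plus the mean difference in score percentile divided by 100. For Igf2 the nearest was Plec, with widths of 1802 and 1952 bp in liver and 6502 and 6452 bp in yolk sac (width distance 0.76), followed by Tnrc18 and Lzts2. For H19 they were Tmem88 (852 and 652 bp against 4252 and 4102 bp, distance 0.32), Fat1 and Pcdh1. For Kcnq1ot1 the nearest was Dhps (1652 and 1702 bp against 2052 and 2002 bp, distance 0.08), then Ptpn14 and Inpp5e. At the genes listed for Igf2 and H19, the yolk sac peak was several kilobases wide and the liver peak narrower. Those genes were picked for such widths, so they show only that this occurs outside the cluster too.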

How the data were processed

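PRO-seq was done on 2 liver and 2 yolk sac libraries. Each deposited file lists peaks of 1 library with chromosome, start, end and a score that the authors gave each peak, from 0.80 to 1.45, with no unit and not scaled between libraries. The word dREG comes from the file names. Bowtie2, bedtools and build mm10 are named in the submitters' processing notes, and filters and software versions are not given in the sources used here. Read depth is unknown, so no counting interval is given. P-values over these 4 libraries measure only the spread between pools.

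Starts came from GENCODE M21 (GRCm38). A promoter peak overlapped the 500 bp either side of any annotated start by at least 1 bp. Peaks were put in a gene or stretch by midpoint, and overlapping peaks were merged into regions. The promoter call code was run on simulated lists, where 200 of 200 planted genes were recovered. Peaks were planted inside the window of an annotated start, at genes away from other genes' starts. That outcome was set by the planting, so it checks the code and says nothing about calls in overlapping genes. Tissues were compared by an exact two-sided permutation test, with 6 possible assignments of libraries, in Python 3.11.15 with numpy 2.4.6, pandas 2.3.3 and scipy 1.17.1. Alternative settings kept the higher-scoring 50% of a list or equal list lengths, varied windows, flanks and merging distances, dropped 1 library at a time, or used replicate numbers as a block. Widths under the score filters, and the stretches under equal list lengths, were added after seeing the data. The members, lists and rules were chosen with earlier results of these data known. Named by rule were the 9 genes, neighbours called in 1 tissue only or reported as imprinted, pathway lists, the 3 genes most like H19, Igf2 and Kcnq1ot1, all regions between H19 and Ins2, and the 3 leading regions per tissue. Long genes with a larger difference than Kcnq1, marker genes and other regions were named after their values were seen.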

Additional observations from a re-analysis of the deposited data

How the results depend on the processing

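No comparison could pass a threshold with 2 libraries against 2. The log2 ratio of peak numbers over the cluster, yolk sac over liver, was 0.99 and turned to -0.0208 with the same number of highest-scoring peaks from each list. It was 1.15 with the higher-scoring 50% and 0.876 to 1.1 with 1 library left out. Inside Kcnq1 the log2 ratio was 2.93, against 1.91 with equal lists, 2.75 with the higher-scoring 50% and 2.81 to 3.04 with 1 library left out. From H19 to Ins2 it was -0.206, against -1.58 with equal lists and -0.585 to 0.0931 with 1 library left out, the sign turning without yolk sac replicate 2. The yolk-sac-minus-liver difference in the number of the 9 genes with a promoter peak was 0.5, against 3 with the higher-scoring 50%, 1.5 when the peak midpoint had to lie in the window, and 0 to 1 with 1 library left out. Liver-only regions numbered 1, against 3 with the higher-scoring 50%, 8 with equal lists and 2 to 8 with 1 library left out, fewer libraries being needed there. Yolk-sac-only regions numbered 35, against 12, 10 and 36 to 49. The causes of these shifts were not tested. For single genes, the yolk-sac-minus-liver difference in promoter calls had 36 alternative values, and 30 were unchanged. The 6 that changed all came from the score filters. They were H19, Igf2, Kcnq1 and Slc22a18 with the higher-scoring 50%, and Igf2 and Slc22a18 with equal lists. Other window sizes changed none. Ins2, called in no library at these settings, is among the unchanged. A promoter lost equally in both tissues would also count as unchanged. Replicate numbers pair no samples by the labels. With the number as a replicate block the values were 0.989 over the cluster, 2.93 in Kcnq1, -0.243 from H19 to Ins2 and 0.5 genes, and 2 pairs allow no exact p below 0.5. Depth is unknown, so an uncalled peak is not an absent one.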
